A study of Homo sapiens with 6 samples.

Results

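Cells make cholesterol and fatty acids from acetyl-CoA with a set of enzymes whose genes are read together, and 37 genes of this supply were followed in KYSE150 cells treated with TPA. The 37 were taken by gene symbol from the 60591 rows of the count table, and every one was found. They comprise 19 enzymes of sterol synthesis, 5 genes that set the activity of the sterol-sensing transcription factors, 6 genes of sterol uptake, transport and efflux, and 7 genes of fatty acid synthesis. A gene was tested where its counts passed edgeR's minimum over the 6 libraries, which 35 of the 37 did. The exceptions were DHCR7, the reductase of a last step to cholesterol, with 1 count over the TPA libraries and 4 over the DMSO libraries, and ABCG1, a sterol exporter, with 6 counts over the TPA libraries and 1 over the DMSO libraries.

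KYSE150 is an established line grown from a squamous carcinoma of the oesophagus. The phorbol ester TPA, which mimics diacylglycerol and so activates protein kinase C, was given at 10 ng/ml for 24 h to cells that had first been kept overnight without serum. DMSO, the solvent, was the control treatment; the labels give neither a dose nor a time for it. RNA was sequenced in 3 TPA libraries and 3 DMSO libraries, and nothing in the labels says that libraries of a group came from separate cultures, so the p-values below measure only the spread between these libraries.

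In mammalian cells, the SREBP factors sit in the membrane of the endoplasmic reticulum bound to SCAP, and INSIG proteins hold the pair there while sterols are plentiful. When sterols run low, SCAP carries the factor to the Golgi, where proteases release the part that enters the nucleus and turns on the enzymes of the pathway. SREBF2 encodes the form best known for sterol genes and SREBF1 the forms best known for fatty acid genes, and serum lipoproteins are the usual outside source of cholesterol, which a cell in serum-free medium lacks.

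The library totals lay between 27702329 and 33965547 counts. The libraries numbered 1 stood apart from those numbered 2 and 3. The first principal component, with 57.3% of the variance, separated TPA 2 and TPA 3 from all DMSO libraries and from TPA 1, and the second, with 31.8%, set TPA 1 furthest from DMSO 2 and DMSO 3. Results are therefore given from the comparison of the groups, from the fit that pairs libraries by number, and without the libraries numbered 1. The labels do not pair the libraries, and the pairing by number was taken from these data. The 9 squamous epithelial markers were counted in every library, with summed values, in CPM (counts scaled to library size), of 1306 to 2609 CPM in TPA and 1692 to 3441 CPM in DMSO. Summed fibroblast markers reached at most 10.5 CPM in TPA and 12.3 CPM in DMSO, and those of hepatocytes, a cell type known for its sterol synthesis, at most 0.0978 CPM in TPA and 0.0988 CPM in DMSO, with ALB at 0. As these are bulk RNA values, fewer cells that express a gene and less RNA per cell cannot be told apart.

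Stretches upstream of the start sites are shown for the sterol enzymes called in the comparison of the groups and for 2 regulators, because SREBPs are known to act at such promoters together with NF-Y, which binds CCAAT. They come from RefSeq (GRCh38.p14), are written 5′ to 3′ on the strand of the gene, and have matches to CCAAT, the sterol element TCACNCCAC and the E-box TCACGTGA in capitals (ATTGG is CCAAT on the other strand). Positions count back from the RefSeq start site, and stretches inside an annotated exon are kept to the match and its flanks. A further CCAAT match of MSMO1, at positions -34 to -30 inside an annotated exon, is not shown.
HMGCS1 upstream match, chr5:43313548-43313582, minus strand: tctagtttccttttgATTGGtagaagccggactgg
HMGCS1 match in an exon of a transcript that starts further upstream, chr5:43313497-43313523, minus strand: taccggccgcgATTGGctgtgggagcc
MSMO1, chr4:165327469-165327612, plus strand: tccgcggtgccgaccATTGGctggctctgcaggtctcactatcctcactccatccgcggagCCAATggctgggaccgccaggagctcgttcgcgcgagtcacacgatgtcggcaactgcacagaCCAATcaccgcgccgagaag
SC5D match in an exon of a transcript that starts further upstream, chr11:121292704-121292730, plus strand: gccggtcgctgATTGGctggccgctcc
INSIG1 CCAAT match, chr7:155297693-155297727, plus strand: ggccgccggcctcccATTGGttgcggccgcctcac
INSIG1 E-box match in an exon of a transcript that starts further upstream, chr7:155297811-155297840, plus strand: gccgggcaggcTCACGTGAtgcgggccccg
SREBF2, chr22:41832957-41833018, plus strand: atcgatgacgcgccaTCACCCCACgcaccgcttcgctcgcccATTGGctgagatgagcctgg

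The RefSeq table matched 32 of the 37 genes by symbol, with 45 start sites. Within 250 bases before the start, on either strand, CCAAT was found at 26 of the 45 (57.8%) and at 32% of the 35116 start sites of all genes, and at 16 of the 23 start sites of sterol enzymes. The GC box GGGCGG, a site of SP1, was found at 40 of the 45 (88.9%) and at 42.6% of all start sites. The full sterol element TCACNCCAC was at 1 of the 45, that of SREBF2 shown above (positions -133 to -125), and at 0.883% of all. The E-box TCACGTGA, which contains the same letters as its reverse, was at 1 of the 45, that of INSIG1 (positions -56 to -49), and at 0.854% of all. TGANTCA, the site of AP-1, a factor that TPA is known to activate, was at 0 of the 45 and at 6.57% of all. The shorter CACNCCAC, chosen after the other counts were seen and contained in the full sterol element, was at 7 of the 45 (15.6%), 1 start site each of IDI1, SC5D, SREBF2, INSIG1, ABCA1, ACACA and SCD, and at 4.87% of all. These matches describe letters in a window and not bound sites. The start sites of all genes were not restricted to expressed genes. Windows of the same gene can overlap, as for ACLY, so the 45 are not independent.

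The sterol synthesis enzymes had lower RNA levels in TPA than in DMSO along most of the pathway. Their summed level was 545, 1352 and 1287 CPM in TPA 1, 2 and 3, against 1107, 2834 and 2775 CPM in DMSO 1, 2 and 3. The 2 libraries numbered 1 were the lowest of their groups, and each TPA library lay below the DMSO library of its number by a like amount. The log2 difference was -1.02, -1.07 and -1.11 in pairs 1, 2 and 3. Its mean was -1.07 ± 0.043 (SD, n = 3 pairs), over pairs taken from the data and not from the labels. Single enzymes were less even, so this small SD holds for the sum alone. HMGCS1 differed least in pair 1 (-1.48, -3.01 and -2.58 in pairs 1, 2 and 3) and FDPS most (-1.15, -0.28 and -0.56). Within the groups the spread of the sum was wide, at 1061 ± 448 CPM in TPA and 2239 ± 981 CPM in DMSO (SD, n = 3 each). Abundant genes weigh most in such a sum; the median over the 18 tested enzymes, which weighs them alike, was a log2 fold change of -0.95, beside -0.11 over all 21825 genes tested. Of the 18 enzymes, 17, 16 and 18 were lower in TPA in pairs 1, 2 and 3, and 15 were lower in every pair, which held for 29.6% of all genes tested.

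**Figure D1:**
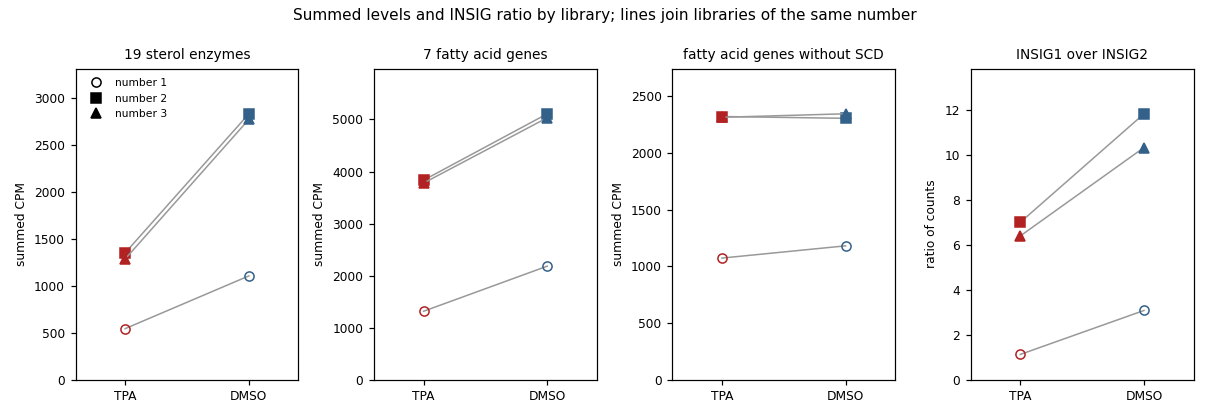
Summed CPM of the 19 sterol synthesis enzymes, of the 7 fatty acid synthesis genes and of these without SCD, and the ratio of INSIG1 to INSIG2 counts, in each library (points; linear axes from 0), with TPA left of DMSO and lines joining libraries of the same number. The sterol sums lie between 545 and 1352 CPM in TPA and between 1107 and 2834 CPM in DMSO, libraries numbered 1 are lowest in both groups in every panel, and the sum without SCD is nearly level from TPA to DMSO.

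In the comparison of the groups (edgeR's quasi-likelihood test, Benjamini-Hochberg adjusted p under 0.05 over all genes), 3 members were called lower in TPA and 0 higher; over all genes, 0.394% were called lower and 0.861% higher. All 3 were sterol enzymes. At an unadjusted p under 0.05 in the same test, 1 of the 35 was higher and 10 lower, 7 of these sterol enzymes, where 11.3% of all genes were higher and 10.7% lower. DESeq2 called 6 lower and 1 higher, beside 4.19% and 7.8% of all genes. Those lower were HMGCS1, IDI1, CYP51A1, MSMO1, SC5D and STARD4, and the one higher was NPC1. With the replicate number as a block in edgeR, 12 members fell and 1 rose, where 6.52% of all genes fell and 4.58% rose. Of the 12, 9 were sterol enzymes, out of 18 tested, and the others were INSIG1, STARD4 and SCD. Without the 2 libraries numbered 1, 20 members fell and 6 rose in edgeR, 14 of the 18 sterol enzymes among the 20; in that comparison 33.3% of all genes fell and 32.2% rose. Without TPA 1 alone, 10 members fell and 5 rose, where 27.8% of all genes fell and 24.6% rose. The members called without both libraries numbered 1 and not with the block were ACAT2, MVK, FDPS, GGPS1, HSD17B7, INSIG2, ACACA and ELOVL6, all lower in TPA, and SREBF1, SCAP, FASN, FADS1 and FADS2, all higher.

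**Figure D2:**
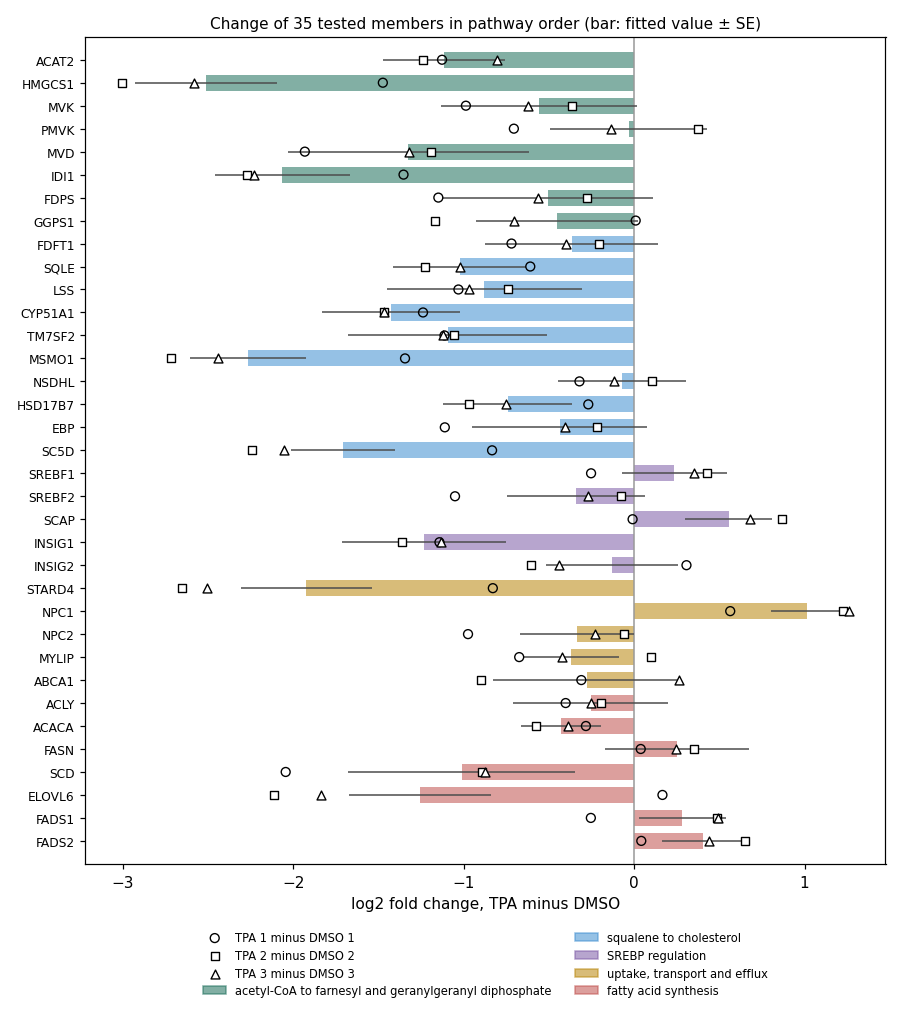
Log2 fold change (TPA minus DMSO) of the 35 tested members in pathway order, coloured by role: bars give the value and standard error of edgeR's comparison of the groups, open symbols the value of each numbered pair. The median over the tested sterol enzymes is -0.95 and that over fatty acid genes -0.25, and HMGCS1, MSMO1 and SC5D are the members called in that comparison.

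The 8 genes from acetyl-CoA to the prenyl diphosphates had a median log2 fold change of -0.84. HMGCS1 (chr5:43289395-43313512, minus strand, GRCh38), the cytosolic HMG-CoA synthase that makes the precursor of mevalonate, was at 64.4, 70.0 and 78.7 CPM in TPA 1, 2 and 3, against 179, 563 and 472 CPM in DMSO 1, 2 and 3. The TPA libraries lay within a narrow range and far below every DMSO library, and DMSO 1 was well below DMSO 2 and DMSO 3. HMGCS1 fell by 2.51 ± 0.42 (SE) on the log2 scale (adjusted p = 0.0445, edgeR; 0.00193 with the block), which is 0.175 times the mean DMSO level. The call was lost when DMSO 2, DMSO 3, TPA 2 or TPA 3 was left out (adjusted p of edgeR 0.135 to 0.288), with the same direction each time.

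IDI1 (chr10:1039152-1049170, minus strand), which interconverts the isoprene units of the pathway, was at 35, 49.9 and 47.9 CPM in TPA, against 89.5, 241 and 225 CPM in DMSO. The groups did not overlap. Its log2 fold change of -2.07 ± 0.40 missed the threshold in the comparison of the groups (adjusted p = 0.0581, edgeR) and passed it with the block (-1.96, adjusted p = 0.00233). MVD (chr16:88651935-88663161, minus strand), the decarboxylase of mevalonate diphosphate, was at 13.6, 79.4 and 76.8 CPM in TPA and at 52.1, 181 and 192 CPM in DMSO. TPA 2 and TPA 3 lay above DMSO 1, so the groups overlapped although each TPA library was below the DMSO library of its number. MVD was called with the block, at -1.48 ± 0.26 (adjusted p = 0.00759, edgeR). It was not called in the comparison of the groups (-1.33 ± 0.71, adjusted p = 0.319, edgeR). Without both libraries numbered 1, MVD was called lower (-1.1, adjusted p = 1.1e-08, edgeR), where 33.3% of all genes fell.

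FDPS (chr1:155308748-155320666, plus strand), farnesyl diphosphate synthase, whose product feeds both sterols and protein prenylation, was at 65.4, 324 and 293 CPM in TPA and at 145, 392 and 432 CPM in DMSO. Both libraries numbered 1 were low, and the pair differences were -1.15, -0.28 and -0.56 on the log2 scale. FDPS passed neither edgeR's comparison of the groups (-0.51, adjusted p = 0.657) nor the fit with the block (-0.66, adjusted p = 0.104). ACAT2, the cytosolic thiolase that joins 2 acetyl-CoA, was scarce at 0.672 to 1.12 CPM in TPA and 1.53 to 2.54 CPM in DMSO, groups that did not overlap. ACAT2 shares 52.3% of its exon bases with genes on the opposite strand, SOD2 and TCP1 among them, and the sources do not say whether counting used the strand. MVK and PMVK, the kinases that phosphorylate mevalonate and its phosphate, and GGPS1, which makes the geranylgeranyl donor of protein prenylation, passed neither fit, with log2 fold changes of -0.56, -0.03 and -0.45 in the comparison of the groups. GGPS1 shares 41.0% of its exon bases with other genes, most of them on its own strand, so its count is uncertain.

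The 10 tested genes from squalene to cholesterol had a median log2 fold change of -0.95. MSMO1 (chr4:165327623-165343160, plus strand) is the methylsterol monooxygenase, which acts in the removal of methyl groups from the sterol ring. MSMO1 was at 31.6, 29.3 and 29.9 CPM in TPA 1, 2 and 3. Its values in DMSO 1, 2 and 3 were 80.5, 193 and 163 CPM. The TPA libraries were nearly equal and DMSO 1 was the lowest DMSO library. MSMO1 fell by 2.26 ± 0.34 on the log2 scale (adjusted p = 0.0394, edgeR; 0.00248 with the block), to 30.3 ± 1.2 CPM in TPA, against 146 ± 58.4 CPM in DMSO (SD, n = 3 each).

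SC5D (chr11:121292453-121308694, plus strand), the desaturase that acts near the end of the pathway, was at 32.7, 20.7 and 20.3 CPM in TPA and at 58.3, 98.3 and 84.6 CPM in DMSO. Here TPA 1 was the highest TPA library and DMSO 1 the lowest DMSO library, so pair 1 differed least. SC5D fell by 1.71 ± 0.31 (adjusted p = 0.0498, edgeR; 0.00909 with the block). SC5D lost its call when any single library other than TPA 1 was left out (adjusted p of edgeR 0.0622 to 0.314), and MSMO1 when DMSO 2, DMSO 3, TPA 2 or TPA 3 was (0.122 to 0.276), both in the same direction. CYP51A1 (chr7:92112151-92134803, minus strand), the lanosterol demethylase, was at 12.0, 20.9 and 24.6 CPM in TPA, against 28.3, 57.9 and 68.4 CPM in DMSO. The groups did not overlap. CYP51A1 was called with the block (-1.40, adjusted p = 0.00687, edgeR) and not in edgeR's comparison of the groups (-1.43, adjusted p = 0.103). Its value is uncertain, since 83.2% of its exon bases are shared with other annotated genes and processed copies such as CYP51A1P2 held 25 to 142 counts per library.

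SQLE (chr8:124998497-125022283, plus strand), squalene epoxidase, a rate-limiting step of the sterol branch, was at 50.7, 84.3 and 87.5 CPM in TPA and at 77.5, 197 and 178 CPM in DMSO. LSS (chr21:46188141-46228824, minus strand), which closes the sterol rings, was at 38.2, 136 and 128 CPM in TPA and at 78.3, 228 and 251 CPM in DMSO. TM7SF2 (chr11:65111845-65116384, plus strand), a sterol reductase, was at 11.1, 38.0 and 37.4 CPM in TPA and at 24.2, 79.2 and 81.6 CPM in DMSO. In all 3 genes TPA 2 and TPA 3 lay above DMSO 1, so the groups overlapped, and every TPA library lay below the DMSO library of its number. SQLE, LSS and TM7SF2 fell with the block, by 0.95, 0.91 and 1.10 on the log2 scale (adjusted p = 0.0331, 0.0332 and 0.0170, edgeR). None passed in the comparison of the groups. Without both libraries numbered 1, all 3 were called lower (adjusted p = 4.8e-08, 1.8e-06 and 1.2e-07, edgeR), where 33.3% of all genes fell.

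FDFT1 (chr8:11795573-11839309, plus strand), squalene synthase, the first enzyme committed to sterols, was at 70.3, 236 and 215 CPM in TPA and at 116, 272 and 284 CPM in DMSO. The groups overlapped, and FDFT1 passed neither fit in edgeR (-0.37, adjusted p = 0.695; -0.44, adjusted p = 0.212 with the block). NSDHL, HSD17B7 and EBP, which finish demethylation and move a ring double bond, passed neither fit, with log2 fold changes of -0.07, -0.74 and -0.44 in the comparison of the groups. NSDHL was lower in TPA in pairs 1 and 3 and higher in pair 2. HSD17B7 is uncertain because its copy HSD17B7P2 held 20 to 149 counts per library.

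**Figure D3:**
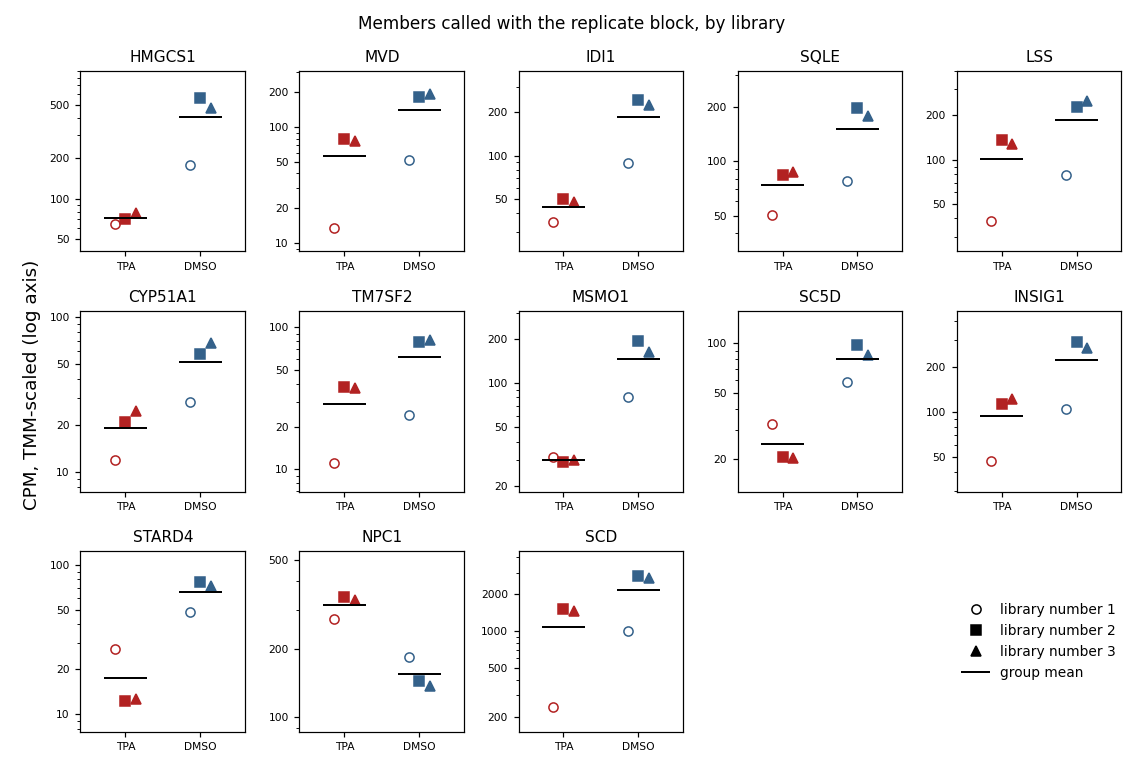
CPM of the 13 members called in edgeR with the replicate number as a block, by library (1 point each, shaped by library number; logarithmic axes), TPA left of DMSO, with a bar at the group mean. HMGCS1, IDI1, CYP51A1, MSMO1, SC5D and STARD4 lie lower in TPA without overlap and NPC1 higher, and MVD, SQLE, LSS, TM7SF2, INSIG1 and SCD overlap, with both libraries numbered 1 the lowest of their groups.

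The depth of the difference varied along the pathway without a steady trend from step to step. The log2 fold changes of -2.51 (HMGCS1), -2.07 (IDI1), -2.26 (MSMO1) and -1.71 (SC5D) were set between genes such as PMVK (-0.03), FDFT1 (-0.37), NSDHL (-0.07) and EBP (-0.44). Per kilobase of exon, HMGCS1 was at 13.7, 14.9 and 16.7 CPM in TPA 1, 2 and 3, against 38.1, 119.8 and 100.4 CPM in DMSO 1, 2 and 3. FDPS was at 17.6, 87.0 and 78.7 CPM per kilobase in TPA, against 39.1, 105.5 and 116.2 CPM per kilobase in DMSO. These enzymes were close in level in every DMSO library and in TPA 1, and far apart in TPA 2 and TPA 3. In the mean of pairs 2 and 3, HMGCS1 (41.6% GC) was at -2.80 and FDPS (54.3% GC) at -0.42. Genes of like GC content had medians of -0.81 and 0.55. HMGCS1, IDI1, MSMO1 and SC5D lie under 45% GC, and PMVK, FDFT1, NSDHL and EBP at or above it. How much of the span between enzymes goes with GC content was not tested.

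The genes that regulate the pathway did not follow it as a group; their median log2 fold change was -0.13 over 5 genes. INSIG1 (chr7:155297776-155310235, plus strand), which holds SCAP in the endoplasmic reticulum and is itself an SREBP target, was at 47.3, 114 and 121 CPM in TPA, against 105, 293 and 266 CPM in DMSO. TPA 2 and TPA 3 were a little above DMSO 1, and the pair differences of -1.14, -1.36 and -1.13 were alike. INSIG1 fell with the block (-1.21 ± 0.23, adjusted p = 0.0122, edgeR) and did not pass in the comparison of the groups (-1.23 ± 0.48, adjusted p = 0.192). Without both libraries numbered 1, INSIG1 was called lower (-1.1, adjusted p = 1.3e-08, edgeR), where 33.3% of all genes fell.

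INSIG2 (chr2:118088452-118110997, plus strand), a relative that is known to be little controlled by SREBPs, was at 41.9, 16.2 and 18.9 CPM in TPA and at 33.9, 24.8 and 25.7 CPM in DMSO. Pair 1 was higher in TPA and pairs 2 and 3 lower, and INSIG2 passed neither fit in edgeR (-0.13, adjusted p = 0.864; -0.25, adjusted p = 0.522 with the block). The ratio of INSIG1 to INSIG2 counts was 1.13, 7.0 and 6.40 in TPA 1, 2 and 3 and 3.08, 11.8 and 10.3 in DMSO 1, 2 and 3. It was lower in TPA in every pair, but the groups overlapped (log2 difference -0.97, p = 0.5, two-sided exact permutation test, whose smallest p for 3 against 3 is 0.1). That difference was -0.11 without TPA 1 and -1.58 without DMSO 1.

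SREBF2 (chr22:41833079-41907308, plus strand), the sterol factor, was at 120, 356 and 318 CPM in TPA and at 249, 377 and 384 CPM in DMSO. TPA 1 stood far below the other 5 libraries, and the pair differences were -1.05, -0.08 and -0.27. SREBF1 (chr17:17810399-17837002, minus strand), the fatty acid factor, was at 77.9, 158 and 156 CPM in TPA and at 92.9, 117 and 123 CPM in DMSO. It was lower in TPA in pair 1 and higher in pairs 2 and 3. Neither passed edgeR's comparison of the groups (SREBF2 -0.34, adjusted p = 0.648; SREBF1 0.24, adjusted p = 0.679) or the fit with the block (-0.46, adjusted p = 0.236; 0.18, adjusted p = 0.638), and the direction of SREBF1 turned with library-size scaling (-0.03). SCAP, the escort of the SREBPs, was at 107 to 187 CPM in TPA and 103 to 108 CPM in DMSO and passed neither fit (0.55 in the comparison of the groups). Without the libraries numbered 1, SREBF1 (0.54, adjusted p = 1.9e-05, edgeR) and SCAP (0.93, adjusted p = 7.0e-08) rose. SREBF2 was not called there (-0.02, adjusted p = 0.855), and 32.2% of all genes rose in that fit. In the mean of pairs 2 and 3, SREBF1 was at 0.39 and SCAP at 0.77. Genes of like GC content had medians of 0.58 and 0.56. With the block and a correction for GC content, SREBF1 (-0.17, adjusted p = 0.197, edgeR) and SCAP (0.15, adjusted p = 0.264) were not called. These are transcript levels, and the cleaved factors were not measured.

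Among the genes of sterol uptake, transport and efflux, STARD4 and NPC1 moved in opposite directions with the block. STARD4 (chr5:111496033-111512590, minus strand), which carries sterols through the cytosol and is a known SREBP target, was at 27.2, 12.2 and 12.7 CPM in TPA, against 48.4, 77.1 and 72.1 CPM in DMSO. The groups did not overlap, and pair 1 differed least. STARD4 fell by 2.01 ± 0.36 with the block (adjusted p = 0.00895, edgeR) and missed the threshold in edgeR's comparison of the groups (-1.93 ± 0.38, adjusted p = 0.0606).

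NPC1 (chr18:23506184-23586898, minus strand), the membrane protein that exports lipoprotein cholesterol from late endosomes and lysosomes, was at 274, 340 and 332 CPM in TPA, against 185, 146 and 138 CPM in DMSO. Every TPA library was above every DMSO library, and NPC1 was the single member of which that was true, while 7 members lay lower without overlap. Over all genes tested, 14.3% lay higher without overlap and 15.2% lower. NPC1 rose with the block (1.02 ± 0.25, adjusted p = 0.0297, edgeR) and missed the threshold in edgeR's comparison of the groups (1.01 ± 0.21, adjusted p = 0.0651). NPC2, the soluble lysosomal partner that hands cholesterol to NPC1, was at 79.8 to 188 CPM in TPA and 157 to 203 CPM in DMSO and passed neither fit (-0.34). The ratio of NPC1 to NPC2 counts was 3.43, 1.81 and 1.92 in TPA and 1.18, 0.741 and 0.681 in DMSO. MYLIP, a ubiquitin ligase for lipoprotein receptors, and ABCA1, a sterol exporter, both known targets of the oxysterol receptor LXR, were scarce and passed neither fit. MYLIP was at 3.16 to 3.43 CPM in TPA and 3.20 to 5.37 CPM in DMSO, and ABCA1 at 0.672 to 2.43 CPM in TPA and 1.24 to 3.03 CPM in DMSO.

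The fatty acid synthesis genes differed from gene to gene and had a median log2 fold change of -0.25. SCD (chr10:100347124-100364834, plus strand), which puts the first double bond into fatty acids, had the highest mean level per length of the members, at 200 CPM per kilobase in TPA and 403 CPM per kilobase in DMSO. In TPA 1 it was below FASN, at 45.2 CPM per kilobase for SCD and 56.1 CPM per kilobase for FASN. Its CPM was 242, 1510 and 1462 in TPA, against 1001, 2802 and 2686 in DMSO. TPA 1 was far below all other libraries, and DMSO 1 was below TPA 2 and TPA 3. SCD fell with the block (-1.27 ± 0.29, adjusted p = 0.0223, edgeR), with pair differences of -2.05, -0.89 and -0.88. It was not called in the comparison of the groups (-1.01 ± 0.67, adjusted p = 0.409, edgeR). Without both libraries numbered 1, SCD was called lower (-0.73, adjusted p = 1.9e-07, edgeR), where 33.3% of all genes fell.

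FASN (chr17:82078333-82098332, minus strand), the fatty acid synthase itself, was at 525, 1324 and 1319 CPM in TPA and at 512, 1040 and 1115 CPM in DMSO. Its groups overlapped, and it passed neither fit (0.25, adjusted p = 0.755, edgeR; 0.21, adjusted p = 0.541 with the block), with a direction that turned under library-size scaling (-0.02). ELOVL6 (chr4:110045846-110199199, minus strand), which lengthens saturated fatty acids, was at 53.9, 25.3 and 26.4 CPM in TPA and at 48.1, 110 and 94.5 CPM in DMSO. The numbered pairs disagreed: 0.17 in pair 1, against -2.12 and -1.84 in pairs 2 and 3, and ELOVL6 was not called (-1.26, adjusted p = 0.141, edgeR; -1.29, adjusted p = 0.0614 with the block). ELOVL6 was called lower without TPA 1 (-1.59, adjusted p = 0.00559, edgeR) and without both libraries numbered 1 (-1.83, adjusted p = 3.2e-10). ACLY and ACACA, which supply acetyl-CoA and malonyl-CoA, and the desaturases FADS1 and FADS2 passed neither fit, with log2 fold changes of -0.25, -0.43, 0.28 and 0.40 in the comparison of the groups. With the block and GC correction, ACLY (-0.63, adjusted p = 0.0136, edgeR) and ACACA (-0.52, adjusted p = 0.0224) were called lower beside SCD, FASN was at -0.12, and the median of the 7 genes was -0.52. Without the libraries numbered 1, FASN (0.45, adjusted p = 6.5e-05, edgeR), FADS1 (0.65, adjusted p = 6.3e-06) and FADS2 (0.70, adjusted p = 4.2e-05) rose. ACACA fell in that fit (-0.33, adjusted p = 0.00169), in which 32.2% of all genes rose and 33.3% fell. In the mean of pairs 2 and 3, FASN, FADS1 and FADS2 were at 0.30, 0.49 and 0.54. Genes of like GC content had medians of 0.57, 0.55 and 0.58 there. With the block and GC correction, FASN, FADS1 (-0.13) and FADS2 (-0.0022) were not called.

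Summed over the 7 fatty acid genes, the level was 1316, 3833 and 3778 CPM in TPA and 2183, 5109 and 5033 CPM in DMSO. Without SCD, a sum chosen after the values were seen, it was 1074, 2323 and 2316 CPM in TPA and 1182, 2307 and 2347 CPM in DMSO. The pair differences of that sum were -0.14, 0.01 and -0.02; in it, lower values of ACLY and ACACA stand against higher values of FASN in pairs 2 and 3. The ratio of the 7 fatty acid genes to the 19 sterol enzymes was 2.42, 2.84 and 2.94 in TPA and 1.97, 1.80 and 1.81 in DMSO, with all TPA libraries above all DMSO libraries, and a mean log2 difference of 0.55 ± 0.22 over the pairs (SD, n = 3 pairs).

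The libraries numbered 1 differed from the rest in these genes within each treatment. The mean of TPA 2 and TPA 3 over TPA 1 had a median of 2.04-fold over the 18 tested sterol enzymes, and that of DMSO 2 and DMSO 3 over DMSO 1 a median of 2.38-fold. Of the 18, 14 were higher in TPA 2 and 3 than in TPA 1, and 16 higher in DMSO 2 and 3 than in DMSO 1. Over all genes tested the same ratios had medians of 0.994 in TPA and 1.0 in DMSO. For HMGCS1, the ratio was 1.15 in TPA and 2.89 in DMSO, and for MVD 5.74 in TPA and 3.59 in DMSO. The labels name no batch for the numbers, and what sets the libraries numbered 1 apart was not tested.

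The GC content of a gene, taken over all its annotated transcripts, moved with the difference in pairs 2 and 3. Over 11991 genes with a log2 CPM above 2, Spearman's rho between GC content and the log2 difference was -0.12 in pair 1 and 0.67 in the mean of pairs 2 and 3, as a description of genes that share libraries. Over the 18 tested sterol enzymes, whose GC content ran between 37.4% and 64.1%, it was -0.02 in pair 1 and 0.58 in pairs 2 and 3. The 8 enzymes under 45% GC, HMGCS1, IDI1, MSMO1 and SC5D among them, had a median of -1.81 in pairs 2 and 3, where other genes within 2 percentage points of each one's GC had -0.82. The 10 enzymes at or above 45% GC had a median of -0.46, where genes of like GC had 0.56. Each of the 18 lay below the median of genes of like GC, in pair 1 as in pairs 2 and 3, and of the 7 fatty acid genes 4 did so in pair 1 and 7 in pairs 2 and 3.

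**Figure D4:**
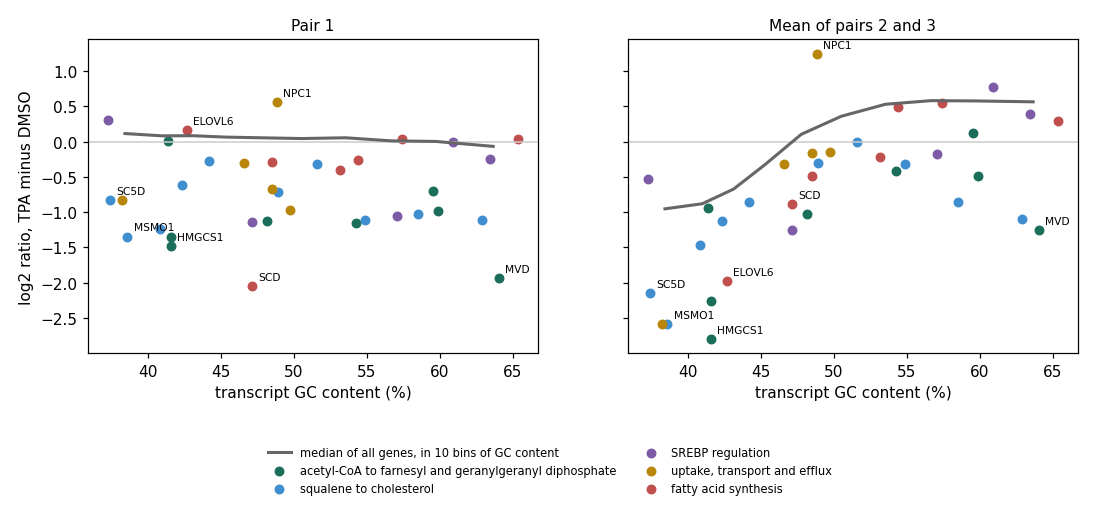
Log2 difference (TPA minus DMSO) against transcript GC content (percent) of the 35 tested members (points, coloured by role). The panels give pair 1 and the mean of pairs 2 and 3, with the median of all genes in 10 bins of GC content (line). In pair 1 the line is nearly flat and the sterol enzymes have a median of -1.07; in pairs 2 and 3 the line climbs from -0.95 in the bin of lowest GC to 0.56 in that of highest GC, with all 18 tested sterol enzymes below the median of genes of like GC.

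With the block and a correction for GC content, edgeR called 24 members lower and 1, NPC1, higher, where 11.4% of all genes were called lower and 9.83% higher. Of the 18 tested sterol enzymes, 17 were called lower, all but GGPS1 (-0.10, adjusted p = 0.516), with a median of -1.03. HMGCS1 was then at -1.85 (adjusted p = 0.00188), IDI1 at -1.44 (0.00176), MSMO1 at -1.57 (0.00153), SC5D at -1.12 (0.00389), MVD at -1.82 (0.00101) and LSS at -1.29 (0.00359), so the span between enzymes was smaller than without the correction. SREBF2 was called lower in this edgeR fit as well (-0.85, adjusted p = 0.00709), which no fit without the correction did.

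Around the 37 genes, 113 further genes of the pathway were listed, of which 98 were tested. In edgeR's comparison of the groups 0 of them were called. At an unadjusted p under 0.05 in that test, 16 were higher and 17 lower, where 11.3% of all genes were higher and 10.7% lower. DESeq2 called 13 of the 98 higher and 6 lower, where 7.8% of all genes were called higher and 4.19% lower. With the block 8 were called higher and 11 lower, where 4.58% of all genes rose and 6.52% fell, and with GC correction as well 25 higher and 19 lower, where 9.83% rose and 11.4% fell. Without the libraries numbered 1, 42 were called higher and 38 lower, where 32.2% of all genes rose and 33.3% fell. The counts of each list with the block, given next, are small and are to be read against 4.58% and 6.52%. Their median log2 fold change was -0.01. In the isoprenoid branch, which uses farnesyl and geranylgeranyl diphosphate for other products, 1 of 14 tested genes rose and 0 fell with the block (6 and 0 with GC correction, 3 and 0 with DESeq2), and the median was 0.12. The gene that rose was RABGGTA, a subunit of the prenyl transferase for Rab proteins, at 61.98 ± 14.95 CPM in TPA and 32.27 ± 1.28 CPM in DMSO (0.91, adjusted p = 0.0441 with the block in edgeR). Of 20 genes of SREBP processing and INSIG turnover, 2 rose and 1 fell (6 and 0 with GC correction). The 2 were VCP, the ATPase that draws proteins out of the endoplasmic reticulum for degradation (1.13, adjusted p = 0.0194 with the block in edgeR), and SEC24C, a coat protein of vesicles that leave it.

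Of 24 tested genes of other sterol enzymes and sterol handling, 1 rose and 6 fell with the block (8 and 7 with GC correction). CAV1, the coat protein of cholesterol-rich caveolae, was at 228, 259 and 271 CPM in TPA, against 411, 551 and 481 CPM in DMSO, without overlap (-0.93 in the comparison of the groups, adjusted p = 0.0659, and 0.0320 with the block, edgeR). GRAMD1C, of a family that moves sterols from the plasma membrane, was at 5.97 to 9.06 CPM in TPA and 15.6 to 19 CPM in DMSO and also fell with the block (adjusted p = 0.0159, edgeR). Of 9 tested LXR and oxysterol genes, 1 rose and 1 fell (1 and 4 with GC correction). SULT2B1, a sterol sulphotransferase, rose to 1.92, 9.38 and 6.65 CPM in TPA, against 1.68, 0.915 and 0.554 CPM in DMSO (adjusted p = 0.0292 with the block in edgeR), and pairs 2 and 3 held most of that difference. SULT2B1 was not called in edgeR's comparison of the groups (2.51, adjusted p = 0.0859) or with the block and GC correction (2.0, adjusted p = 0.0547). Of 31 tested genes of other fatty acid and glycerolipid steps, 3 rose and 3 fell (4 and 8 with GC correction). AGPAT2, an acyltransferase of glycerolipid synthesis, was at 28.5, 58.0 and 58.9 CPM in TPA and at 17.5, 18.6 and 19.1 CPM in DMSO. ACSL3, which activates long-chain fatty acids, was at 74.2, 42.3 and 46.9 CPM in TPA and at 107.9, 121.9 and 111.4 CPM in DMSO. In neither gene did the groups overlap, and both passed with the block (adjusted p = 0.0153 and 0.0272, edgeR) and not in edgeR's comparison of the groups. With GC correction the value of ACSL3 was -0.53, against -1.11 with the block alone, and it passed in that edgeR fit too (adjusted p = 0.0152).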

How the data were processed

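RNA of 3 TPA and 3 DMSO libraries was counted per gene; the deposited table holds the authors' raw counts, whole numbers that were not normalized. The submitters' processing notes name HISAT2 2.1.0, HTSeq 0.12.4 and the build hg38 (GRCh38); annotation release and strand setting: not given in the sources used here. The table calls the DMSO columns control.

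Counts were tested in R 4.3.3 with edgeR 4.0.16 (TMM scaling, its filter on low counts, the quasi-likelihood test with treatment as the single term, 21825 genes) and Benjamini-Hochberg adjustment over all genes, called at 0.05. CPM use TMM-scaled library sizes; 3 counts correspond to 0.0915 to 0.109 CPM. Log2 pair differences used a prior count of 2. Alternatives were other scalings, no filter, DESeq2 1.42.0, limma 3.58.1 (voom), the replicate number as a block, the block with a GC correction (a spline of 5 degrees of freedom fitted on genes above log2 CPM 2, 21003 genes with a GC value), and leaving libraries out. Scripts were tested on simulated data.

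The labels number the libraries 1 to 3 in both groups without naming a shared batch. Deviations from the group means of same-numbered libraries correlated at 0.55, 0.34 and 0.37 for numbers 1, 2 and 3, so the numbers were taken as pairs from the data. TPA 3 with DMSO 2 (0.36) and TPA 2 with DMSO 3 (0.37) correlated as well. These values set number 1 apart from 2 and 3 and do not decide the match between numbers 2 and 3.

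Exon lengths, GC content and gene positions came from GENCODE release 29, whose genes matched 37689 of the 60591 symbols by current symbol and 18793 by that release's symbol. Members named with values were those called in either fit, the lowest p and highest level of each role, and SREBF1, SREBF2, INSIG1 and INSIG2; FASN was added outside that rule after its values were seen. The 10 genes of the wider lists are the 2 lowest p of each list. The members and lists were chosen with earlier results of these data known. Some genes of the pathway are not reported here.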

Additional observations from a re-analysis of the deposited data

How the results depend on the processing

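Of all genes, 188 were called higher and 86 lower in TPA in the comparison of the groups. The count of higher genes was 429 with no filter, 1702 with DESeq2, 1000 with the replicate block, 2065 with the block and GC correction, 7216 without both libraries numbered 1, and 0 to 5577 when 1 library was left out. That of lower genes was 219 with library size alone, 202 with no filter, 915 with DESeq2, 130 with limma-voom, 1423 with the block, 2399 with GC correction, 7475 without both libraries numbered 1, and 0 to 6297 with 1 left out. Of the members, 0 were called higher, and 1 with DESeq2, 1 with the block, 1 with GC correction, 6 without both libraries numbered 1, and 0 to 5 with 1 left out. Of the members, 3 were called lower, and 5 with no filter, 6 with DESeq2, 12 with the block, 24 with GC correction, 20 without both libraries numbered 1, and 0 to 10 with 1 left out. The 0 came without DMSO 2, DMSO 3, TPA 2 or TPA 3, and the 10 without TPA 1; the cause was not tested. The pairing rests on the data and not on the labels, and the block changed no call of a member beyond those given above. The median of the 7 fatty acid genes was -0.56 to 0.19 with 1 library left out (0.19 without TPA 1), and the log2 difference of the fatty acid to sterol ratio was 0.67 without both libraries numbered 1. HMGCS1, MSMO1, SC5D, IDI1, CYP51A1, STARD4, INSIG1 and NPC1 kept their direction in all 14 alternatives. Directions turned for PMVK (0.087 with RLE scaling, 0.085 with no filter, 0.087 with DESeq2, 0.27 without both libraries numbered 1), NSDHL (0.045, 0.042, 0.045 and 0.15 in the same order), SREBF1 (-0.030 with library size alone, -0.17 with GC correction), FASN (-0.023 and -0.12), INSIG2 (0.34 with GC correction), FADS1 (-0.13 with it), FADS2 (-0.0022 with it) and NPC2 (0.0082 without both libraries numbered 1). With 1 library left out, the members whose direction turned ranged over -0.32 to 0.45 (PMVK), -0.86 to 0.043 (FDPS), -0.68 to 0.12 (FDFT1), -0.29 to 0.33 (NSDHL), -0.71 to 0.072 (EBP), -0.60 to 0.12 (SREBF2), -0.57 to 0.13 (INSIG2), -0.53 to 0.073 (NPC2), -0.66 to 0.27 (ABCA1), -0.56 to 0.19 (ACLY) and -0.025 to 0.68 (FASN). The turned values passed the threshold in none of these fits. With 3 libraries a group, the spread between libraries limits the abundant members, and low counts limit DHCR7, ABCG1 and ABCA1. Why those counts were low was not tested.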
